A study of Caenorhabditis elegans with 2 samples.

Results

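The genes cdc-48.1, cdc-48.2 and eel-1, which act in protein turnover, are described here by the ZTF-6 binding sites at their starts. They are 3 of the 46926 genes, and 3 of the 19985 protein-coding genes, of the Ensembl WBcel235 annotation. They were chosen by measured values of these data, the presence and signal of peaks within 1000 bp of their starts, so their peaks are a description and no test is made on them. Binding of the zinc finger protein ZTF-6 was mapped in the nematode Caenorhabditis elegans by chromatin immunoprecipitation and sequencing (ChIP-seq) with an antibody against GFP. The animals were of strain RW12301, in which a CRISPR insertion at ztf-6 (st12301, on chromosome I) adds TY1, EGFP and 3xFLAG tags to the protein. Both biological replicates were whole young adults of 62 hours, synchronised by starvation as L1 larvae after bleaching, and made up the 1 group of the study. Every site is therefore a sum over all tissues, in which occupancy in a few cells and weak occupancy in many cannot be told apart.

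CDC-48 is the worm form of p97 (VCP in humans), a ring-shaped ATPase of the AAA family that pulls ubiquitin-marked proteins out of membranes, complexes and chromatin and hands them on for degradation by the proteasome. C. elegans has a pair of closely related genes for it, cdc-48.1 and cdc-48.2. EEL-1 is a very large ubiquitin ligase of the HECT class and the worm counterpart of human HUWE1. It attaches ubiquitin to target proteins and is known in the worm embryo for limiting the transcription factor SKN-1.

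A gene was given every peak whose summit was at most 1000 bp from one of its transcript starts. In the authors' conservative list, which rests on both replicates and holds 551 peaks, cdc-48.1 had 1 peak, eel-1 had 2 and cdc-48.2 had 0. Of all protein-coding genes 2.17% had a peak by this rule, and 0.0951% had 2 or more, as eel-1 did. The cdc-48.1 peak and the eel-1 peak nearer to the gene (the proximal peak) held ranks 10 and 16 of the 551 by signal. The other eel-1 peak (the distal peak) was at rank 320. The sequences under these 3 peaks are given first, because they differ in kind: the cdc-48.1 site is unique in the genome, while the eel-1 sites lie at the ends of a repeat. They are read 5′ to 3′ on the plus strand of RefSeq's WBcel235 sequence, the assembly that ce11 also names. Both genes lie on the minus strand, so each peak's end nearer to the gene is on the left. In the first, capitals mark the fixed words TGACGT and TATAAA (read on either strand). In the others they mark TCCCCTTTTC or its reverse complement.
cdc-48.1 peak, chrII:10563505-10563625: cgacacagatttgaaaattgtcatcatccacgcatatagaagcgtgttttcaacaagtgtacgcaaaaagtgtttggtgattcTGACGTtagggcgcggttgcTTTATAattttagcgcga
eel-1 proximal peak, chrIV:3050396-3050530: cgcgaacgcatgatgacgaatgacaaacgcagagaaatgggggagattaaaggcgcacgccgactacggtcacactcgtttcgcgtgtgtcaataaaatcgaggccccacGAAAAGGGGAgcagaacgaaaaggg
eel-1 distal peak, chrIV:3050755-3051034: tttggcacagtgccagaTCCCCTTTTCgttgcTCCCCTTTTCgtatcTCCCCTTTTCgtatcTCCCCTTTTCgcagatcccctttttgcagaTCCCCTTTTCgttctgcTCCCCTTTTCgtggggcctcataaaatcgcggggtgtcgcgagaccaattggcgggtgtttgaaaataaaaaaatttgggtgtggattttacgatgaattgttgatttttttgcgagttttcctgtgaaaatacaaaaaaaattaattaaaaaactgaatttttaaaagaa

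cdc-48.1 (WBGene00007352) lies on chromosome II from 10560036 to 10563407 and has 1 annotated transcript. Its conservative peak had a signal of 246.9 and covered 121 bp. The summit lay 155 bp upstream of the transcript start, in sequence that the annotation assigns to no gene. The signal value is the authors' own measure of a peak over the control, on a scale that no source here states. It was 129.7 in replicate 1 and 103.6 in replicate 2, each in that replicate's own list. These were ranks 8 of 215 and 21 of 253, so the site was among the strongest in each replicate. The irreproducible discovery rate (IDR), the authors' measure of how far 2 rankings disagree, was 2.18e-05 for the conservative peak. In the replicates the summit lay 165 and 178 bp upstream, 10 and 23 bp from the conservative one.

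The cdc-48.1 peak also counted for 1 other gene. This was C06A1.9 (WBGene00045152), a gene for a small nucleolar RNA, a class that guides chemical modification of other RNAs. It lies within cdc-48.1 on the same strand, from 10562952 to 10563064, and overlaps 0 of the 5 exons of its host, so it is intronic. The summit lay 498 bp upstream of its start, and the peaks of the replicates lay 508 and 521 bp upstream. The protein-coding genes C06A1.6 and C06A1.7 on the other side of the peak start 1116 and 1329 bp from its summit, outside the window. The next conservative peak from a cdc-48.1 start lay 13.9 kb away, with a signal of 75.5. Inside the window the ranked list behind the conservative one held 3 further peaks that did not pass the threshold, with signals of 33.6, 25.6 and 14.8.

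cdc-48.2 (WBGene00008053; chromosome II, 8138496 to 8141230, plus strand) had 0 peaks in each of the 4 thresholded lists. The nearest conservative peak lay 110.1 kb upstream of its start, and the nearest of the authors' second thresholded list 31.2 kb upstream. The unthresholded ranked list behind the conservative one named 3 peaks in its window, at 921 and 457 bp upstream and 410 bp downstream of the start. Their signals were 28.9, 24.1 and 27.3, and their IDR was 0.860, 0.732 and 0.860. The ranked list behind the second one kept the peaks of 24.1 and 27.3. Such lists name a peak near most protein-coding genes, 78.2% in the first of these lists and 79.7% in the second, 65.8% in replicate 1 and 70.7% in replicate 2. In the first, by highest signal, cdc-48.2 stood above 53.2% of all protein-coding genes, against 75.9% in replicate 1 and 44.9% in replicate 2. These shares count genes with no listed peak as below it. Among protein-coding genes with a peak in the first of these lists, the median was 31.7, above the 28.9 of cdc-48.2. The replicates placed its strongest ranked peak on opposite sides of the start. In replicate 1 it had a signal of 20.6 and lay 451 bp upstream, and in replicate 2 it had 14.6 and lay 420 bp downstream.

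The coding sequences of cdc-48.1 and cdc-48.2, 2427 and 2430 bp long, were identical at 76.3% of aligned bases. Their upstream regions of 1000 bp gave 0 matches to each other by blastn at an expected count of 0.001. The highest ranked signal in the window was 246.9 at cdc-48.1 and 28.9 at cdc-48.2. In single replicates these pairs were 129.7 and 20.6, and 103.6 and 14.6.

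**Figure D1:**
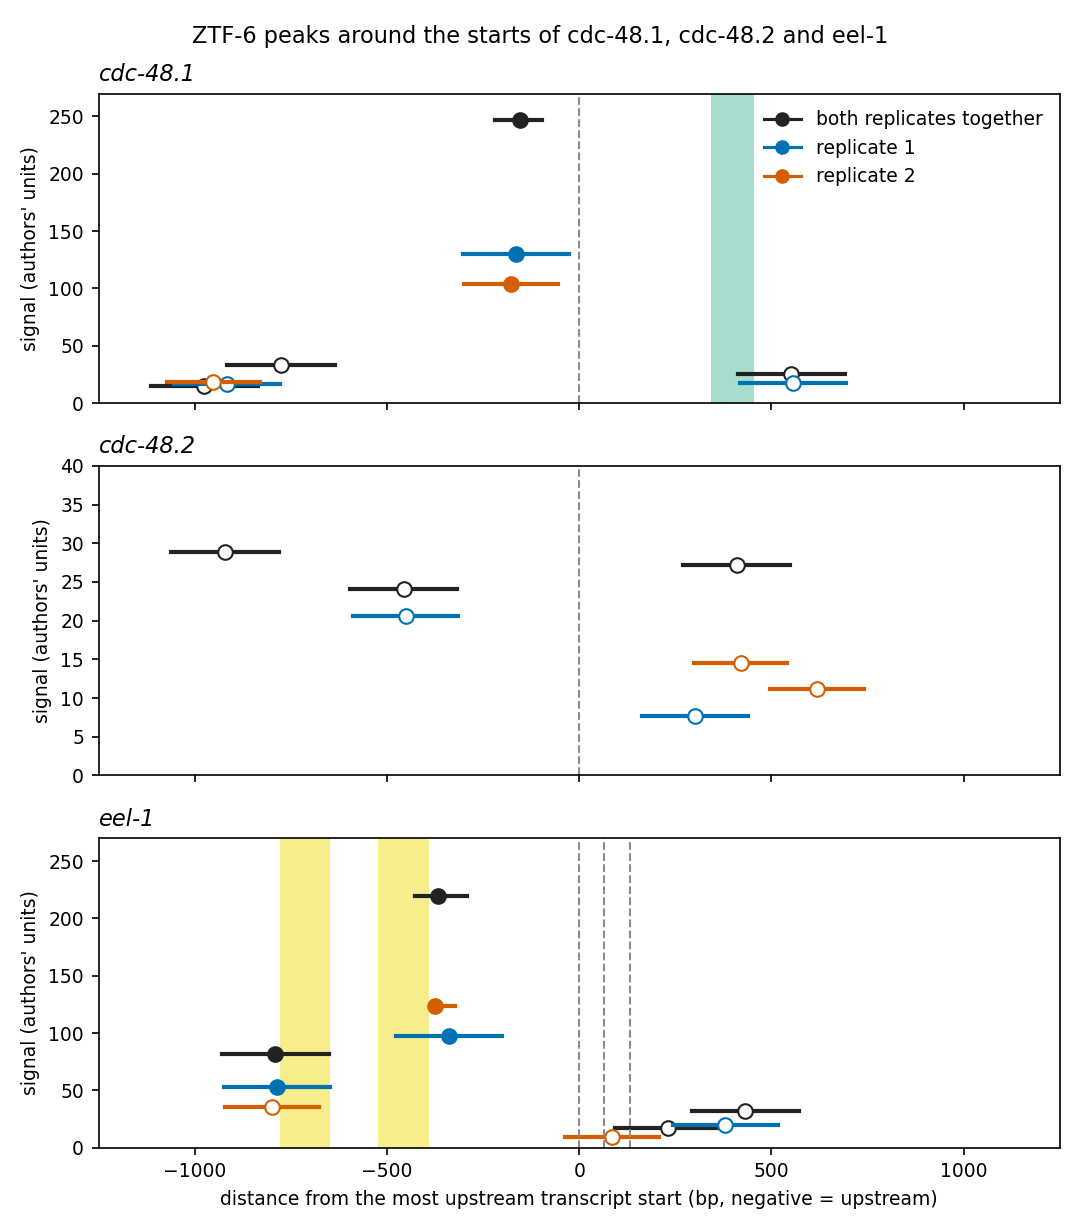
Peaks around the starts of cdc-48.1, cdc-48.2 and eel-1. The horizontal axis is the distance in bp from the most upstream transcript start (dashed lines mark starts), and the vertical axis is the authors' signal, on a smaller scale for cdc-48.2. Bars span the peaks and circles mark summits, filled where the peak is in the thresholded list. Black stands for the ranked list of both replicates, blue for replicate 1 and orange for replicate 2. Green marks the snoRNA gene C06A1.9 and yellow the arms of the inverted repeat at eel-1. The filled circles stand at 155 bp upstream of cdc-48.1 and at 368 and 791 bp upstream of eel-1 in black, and cdc-48.2 has none.

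eel-1 (WBGene00022069) lies on chromosome IV from 3032713 to 3050104 on the minus strand, with 8 annotated transcripts that begin at 3 positions. The proximal peak had a conservative signal of 219.8, with its summit 368 bp upstream of the outermost start and 501 bp upstream of the innermost. Its signal was 97.9 in replicate 1 and 124.0 in replicate 2, at ranks 18 of 215 and 12 of 253. The IDR of the conservative peak was 2.96e-05. No other gene had a start within 1000 bp of it. It passed the authors' threshold in each replicate, with summits 339 and 375 bp upstream.

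Weaker than its neighbour, the distal peak of eel-1 had a conservative signal of 81.8, and the proximal signal was 2.69 times as high. Its summit lay 791 bp upstream of the outermost start and 924 bp upstream of the innermost, close to the limit of the window. Its signal was 53.4 in replicate 1 and 35.8 in replicate 2. Only replicate 1 had it in its thresholded list, at rank 136 of 215. In the ranked list of replicate 2 it had an IDR of 0.144 and stood at percentile 98.2 by signal. No other gene start lay within 1000 bp, and the nearest was that of the pseudogene WBGene00235353, 1463 bp away. Beyond the window, the next conservative peak lay 19.9 kb from an eel-1 start, with a signal of 68.9.

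The order of the strong sites was not the same in the replicates. cdc-48.1 was above the proximal eel-1 peak in the conservative list and in replicate 1, and below it in replicate 2. Across the 543 conservative peaks with a ranked peak in both replicates, the log2 ratio of replicate 1 to replicate 2 had a median of −0.05, and 90% of peaks lay between −0.77 and 0.64. The cdc-48.1 and proximal eel-1 peaks lay within that range on opposite sides of equality, at 0.33 and −0.34. That range is of ratios of single peaks and not of differences between peaks. Whether the order of these peaks differs beyond the spread between replicates was therefore not tested. The distal eel-1 peak was the weakest of the 3 in each replicate. Compared with all protein-coding genes by highest signal, cdc-48.1 was at rank 9 in replicate 1 and 19 in replicate 2 of the ranked lists, and eel-1 at 18 and 14. Of all protein-coding genes 0.936% had a thresholded peak in replicate 1 and 0.981% in replicate 2.

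**Figure D2:**
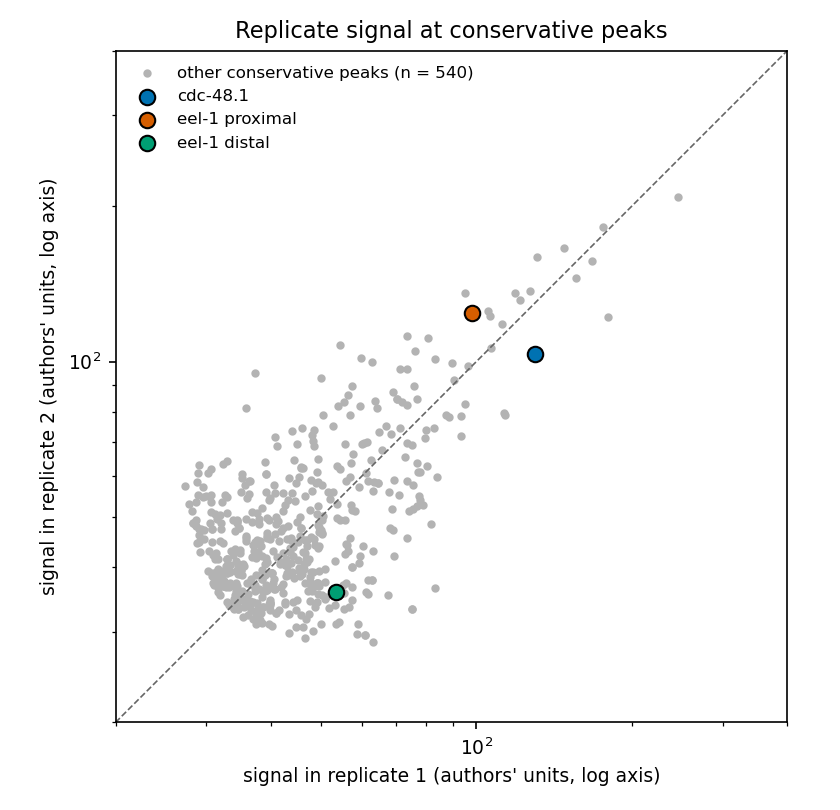
Signal in replicate 1 (horizontal) against replicate 2 (vertical), in the authors' units on log axes, for the 543 conservative peaks with a ranked peak in both replicates. Grey points are the other peaks, coloured points the 3 peaks at cdc-48.1 and eel-1, and the dashed line marks equal signal. The cdc-48.1 point (129.7, 103.6) lies below the line and the proximal eel-1 point (97.9, 124.0) above it.

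The sites most like these in replicate signal lay nearest to genes outside the protein turnover lists given below. Likeness was the distance between log2 signals over the 2 replicates, which is a short profile, and each site was named by the nearest gene start. For cdc-48.1 the closest were the sites at Y17G9B.5 (distance 0.28), Y62F5A.12 (0.36) and rpl-35 (0.38), the last a gene of the large ribosomal subunit. For the proximal eel-1 peak they were those at rpl-35 (0.12), Y17G9B.5 (0.21) and K12H4.5 (0.31). For the distal peak they were a pair of conservative peaks at the ncRNA gene C26E6.15 (0.017 each), which overlap the same replicate peaks, and the site at the ncRNA gene T13H2.9 (0.020).

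The proximal and distal peaks of eel-1 flanked an inverted repeat, a stretch whose ends are reverse complements of each other. This feature was noticed in these sequences and then measured. The left arm ran from 3050496 to 3050627 and the right arm from 3050752 to 3050883, each 132 bp long and 98.5% identical to the other's reverse complement, with 124 bp between them. The proximal summit lay 24 bp outside the repeat on its gene side, and the distal summit 12 bp outside it on the far side. Of the printed proximal peak the last 35 bases belong to the left arm, and of the distal peak the first 129 bases to the right arm. The arms are given to show their repeated word TCCCCTTTTC, in capitals here as its reverse complement.
Left arm, chrIV:3050496-3050627, plus strand: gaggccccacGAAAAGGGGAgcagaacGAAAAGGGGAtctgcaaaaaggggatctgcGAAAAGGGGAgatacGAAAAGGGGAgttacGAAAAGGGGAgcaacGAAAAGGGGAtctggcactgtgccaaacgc
Right arm, chrIV:3050752-3050883, minus strand: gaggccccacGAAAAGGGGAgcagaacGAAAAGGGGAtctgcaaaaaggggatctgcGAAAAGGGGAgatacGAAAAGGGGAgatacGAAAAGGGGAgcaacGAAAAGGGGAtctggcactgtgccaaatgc
Counted from the first base printed, the right arm differs from the left by T84A and C130T. RefSeq marks all 388 bases of the repeat as repetitive sequence.

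Copies of this repeat, or of a single arm of it, lay on every nuclear chromosome, and the only one on X was a single arm. With matches of at least 80% identity over at least 80% of the left arm, 68 arm copies were found. Joined where they lay within 400 bp, they formed 39 copies of the repeat, the one at eel-1 included, and 22 of these had arms on both strands, while the other 17 had arms on 1 strand only. Of the 39, 11 (28.2%) had a conservative summit inside or within 200 bp, of which 9 had arms on both strands and 2, at atad-3 and spd-5, were single arms. Of the 27 copies centred within 1000 bp of a protein-coding start, 10 had one. The copy at eel-1, from whose peaks the repeat was found, is among the 11 and the 10. In the thresholded list of replicate 2 the count was 10 of 39 (25.6%) and in that of replicate 1 it was 5 of 39 (12.8%). In the ranked lists most copies had a peak by this rule. The shares were 76.9% behind the conservative list, 84.6% behind the second, 66.7% in replicate 1 and 74.4% in replicate 2. By the wider rule of 1000 bp around starts, these lists named a peak at 78.2%, 79.7%, 65.8% and 70.7% of protein-coding genes. The share of other loci with a summit inside or within 200 bp was not measured, so the counts of copies have no like background. In the conservative list 1 copy, that at eel-1, had more than 1 peak, against 3 copies in the second thresholded list, 1 in the thresholded list of each replicate and 7 to 22 in the ranked lists. For replicate 1 this was again the copy at eel-1. For replicate 2 it was another copy, since the distal eel-1 peak was not in that thresholded list.

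The 12 conservative peaks at these copies had signals from 62.7 to 246.5 (median 94.4), against a median of 85.7 for the other 539. The strongest was the site nearest to Y62F5A.12 (246.5), and the proximal eel-1 peak came next. Further sites lay nearest to dnj-28 (168.9), a gene for a J-domain chaperone, atad-3 (162.1), for a mitochondrial AAA ATPase, and enu-3.3 (127.7). Others were nearest to C09E7.7 (99.9), anr-58 (89.0), klp-7 (82.8), spd-5 (81.4), C26B2.7 (81.1) and ttll-4 (62.7). Summits lay outside the copy at 7 of the 12 peaks, by at most 60 bp. A limit of 500 bp in place of 200 bp added 3 copies. Their summits lay 236 bp outside at rps-24 (signal 191.4), 241 bp at cpt-2 (92.7) and 216 bp at enu-3.1 (62.5). These distances run to copies as defined above, which leaves out shorter matches. The 3 peaks themselves matched the sequence of the distal eel-1 peak. The matches were 84 bp long at rps-24 (100% identity), 83 bp at cpt-2 (100%) and 88 bp at enu-3.1 (95.5%). No source here states how reads that match several places were treated, and the part of such reads in where these summits lie was not tested.

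**Figure D3:**
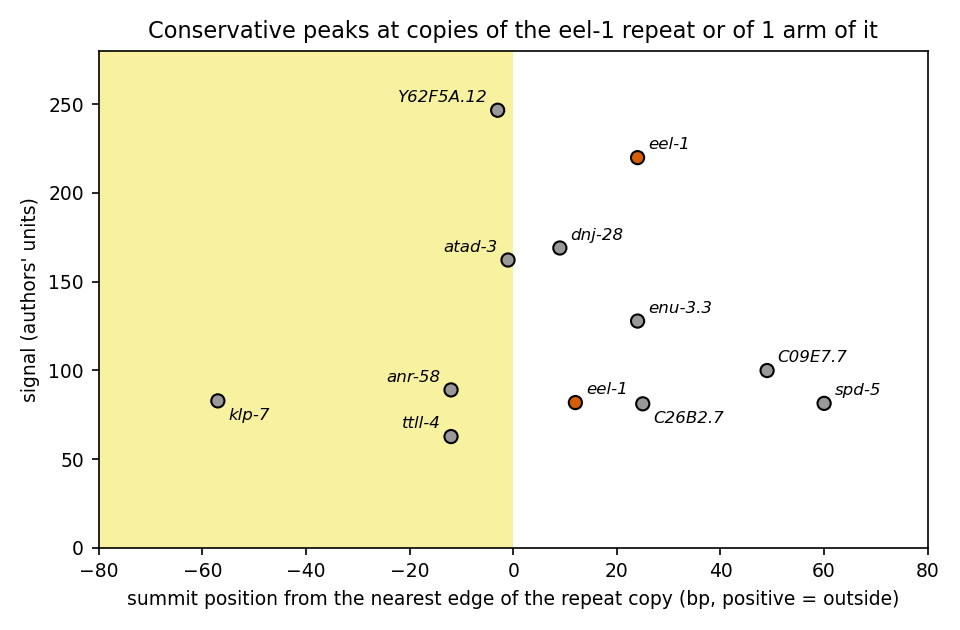
Conservative peaks within 200 bp of the 11 copies of the repeat found at eel-1, of which those at atad-3 and spd-5 are single arms. The horizontal axis is the summit's distance in bp from the nearest edge of the copy (yellow: inside, positive values: outside), the vertical axis is the authors' signal, and each point is 1 peak with the gene whose start is nearest. The eel-1 peaks, in orange, lie 24 and 12 bp outside, and the 12 points lie between −57 and 60 bp.

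By contrast, the cdc-48.1 peak sequence had 0 further matches in the genome at an expected count of 0.001. The eel-1 peaks had 0 further copies at 80% identity over 50% of the peak, and shorter matches lay at 95 loci for the proximal peak and at 143 for the distal one. These counts leave out only each peak's full match to itself, so matches within the repeat at eel-1, such as to its other arm, were not removed. The repeated word TCCCCTTTTC occurred in 15 of 551 windows of 300 bp centred on conservative summits (2.72%), on either strand, and each of the 15 held it more than once. It occurred in 44 of 19973 promoters of the same length (0.220%), from 250 bp before to 50 bp after each protein-coding gene's outermost start. Of these 44 genes, 8 (18.2%) had a conservative peak in their window, against 2.17% of all protein-coding genes. Of the 15 windows, 12 lay at a copy of the repeat, those of both eel-1 peaks among them. The word was picked from the distal eel-1 peak because it recurs there. These shares therefore describe the same repeat again and are no separate test of enrichment.

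A list of 9 short words, of known promoter elements and of the splice acceptor, was searched on both strands of the same windows of 300 bp. The window at cdc-48.1 held TATAAA, the word of the TATA box, which 22.0% of conservative windows and 37.9% of promoters held. It also held TGACGT, which is part of a CRE site and was in 7.80% of conservative windows and 10.3% of promoters. The remaining word there was GCGCGAA, which is part of an E2F site and was in 5.26% and 1.92%. The TGACGT and 1 of 2 matches to the TATA box word lie within the printed peak. At the proximal eel-1 summit the window held only TTTTCAG, the splice acceptor word, which was in 17.2% of conservative windows and 31.9% of promoters, and the match lies outside the printed peak. None of the matches at these 3 summits overlaps a TCCCCTTTTC. At the distal summit none of the 9 was found. In none of the 3 windows was there CACGTG, the E-box, which 8.17% of conservative windows and 5.82% of promoters held. Likewise absent was GGTTCGA, the core of the tRNA B box, which 14.7% and 1.42% held. The GA repeat CTCTCT was in 31.4% and 17.5%, the GATA word CTTATCA in 2.90% and 9.19%, and the heat shock element core TTCTAGA in 4.54% and 5.45%, with no match at these summits. Each match is a string of letters only, and the absence of one says only that those letters are not in the window. The GC content was 31.7% in the cdc-48.1 window, 48.33% in the proximal eel-1 window and 39.7% in the distal one. The median of all 551 windows was 44.0%, and 90% of them lay between 33.3% and 55.3%, so the cdc-48.1 window lay below that range.

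In a list of 78 further genes of protein turnover, 4 had a conservative peak (5.13%, against 2.17% of protein-coding genes), and no test was made of the difference. Over the 69 of the 78 with a peak in the ranked list, the median of the highest signal was 34.4, against 31.7 over the 15631 protein-coding genes with one. The 14 genes of the 20S core of the proteasome, which cuts proteins up, had 0 conservative peaks, as did the 20 of its 19S cap, which recognises and unfolds them. Their highest ranked signals were 69.4 at pbs-1 and 66.9 at rpn-3. The 6 genes of ER-associated degradation also had 0, with a highest signal of 46.2 at sel-1.

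Of 17 genes for ubiquitin and its activating and conjugating enzymes, 1 had a conservative peak. This was ubc-6, whose product is a conjugating enzyme of the ER membrane, with a signal of 147.7 at rank 48 and a summit 243 bp upstream. Its signal was 49.9 in replicate 1 and 93.1 in replicate 2, and the peak was in each thresholded list. It also lay 407 bp upstream of aka-1. Among 15 partners of CDC-48, ubxn-3, which encodes a UBX-domain adaptor, had a peak of 73.0 lying 695 bp upstream. Its strongest ranked signals in the replicates were 31.1 and 41.4, and neither was in a thresholded list of a single replicate.

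Of 6 HECT ligases other than eel-1, 2 had a conservative peak, against 2.17% of protein-coding genes. wwp-1, which encodes a ligase of the Nedd4 family, had a signal of 92.2 with the summit 285 bp upstream. Its signal was 29.0 in replicate 1 and 63.0 in replicate 2, and of these only that of replicate 2 passed the authors' threshold. The same summit was 94 bp into the ncRNA gene Y65B4BR.10. ubr-5 had 66.1 at 583 bp upstream, a peak that also lay 866 bp upstream of F29D10.1. Its replicate signals were 35.5 and 33.4, with an IDR of 0.642 and 0.726. It had no peak in the thresholded list of either replicate or in the second thresholded list. The count of 4 depended on the replicates, since replicate 1 alone gave 1 of the 78 (ubc-6), against 0.936% of protein-coding genes, and replicate 2 alone gave 3 (ubc-6, wwp-1 and let-70), against 0.981%. The second thresholded list gave 3 (ubc-6, wwp-1 and rpn-3), against 2.27% of protein-coding genes. let-70 encodes a conjugating enzyme, and its replicate 2 peak of 56.0, at 809 bp upstream, was shared with the snoRNA gene M7.15 (85 bp upstream) and with klc-1 (673 bp upstream). rpn-3 encodes a subunit of the 19S cap, and its peak of 66.9 also lay 241 bp upstream of the chaperone gene hsp-110 and 55 bp upstream of the ncRNA gene C30C11.14.

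**Figure D4:**
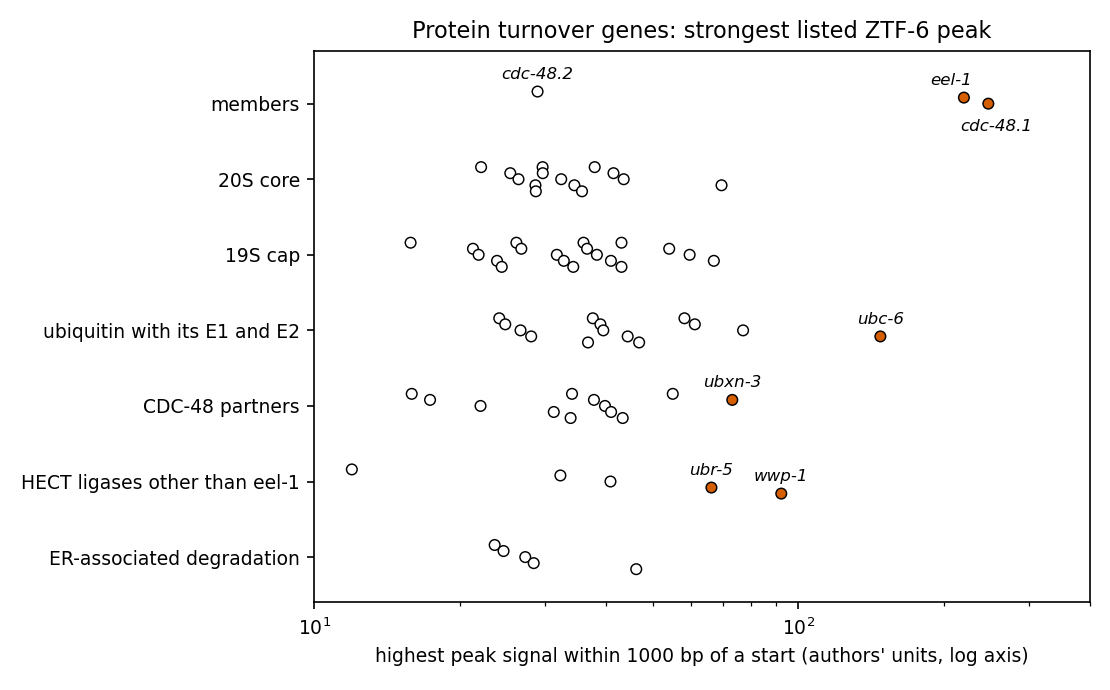
Highest peak signal within 1000 bp of a start for cdc-48.1, cdc-48.2, eel-1 (top row) and the genes of 6 lists of the protein turnover machinery, from the ranked list of both replicates, in the authors' units on a log axis. Each circle is 1 gene, filled where it has a conservative peak. cdc-48.1 (246.9) and eel-1 (219.8) lie above the highest of the 78 listed genes, ubc-6 (147.7), while cdc-48.2 (28.9) lies below the median of 34.4 over the 69 listed genes with a ranked peak.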

How the data were processed

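The authors deposited ranked and thresholded peak lists of single replicates and of both combined, on ce11 per the labels. Per the deposited file lists, peaks were derived from alignments and a control alignment, and the thresholded lists also from a further annotation file. Which aligner and peak caller were used is not given in the sources used. In the deposited lists the signal value is the caller's own, the score is a whole number scaled from the IDR, and q-values and IDR are −log10 values, converted here. Per the labels, chromatin was sonicated to 200 to 800 bp. Read depth is unknown from these lists.

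Starts came from Ensembl release 115 and sequence from RefSeq WBcel235. All peaks lay within its 6 nuclear chromosomes. Matches were found with blastn 2.17.0 (word size 7), and coding sequences were aligned with Biopython 1.88. Assignment of summits to starts was tested on simulated data.

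The members, lists and tests were chosen with earlier results of these data known. Named genes were the members, genes sharing their peaks, listed genes with a thresholded peak, the 3 most alike sites and up to 10 sites matching a member peak. F29D10.1, aka-1, Y65B4BR.10, M7.15, klc-1, hsp-110 and C30C11.14 were named because they share a listed gene's peak, pbs-1 and sel-1 as the highest of their lists, and rps-24, cpt-2 and enu-3.1 as sites beyond the distance limit for copies, after values were seen. Alternatives were other lists, windows, IDR limits, single replicates and match rules.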

Additional observations from a re-analysis of the deposited data

How the results depend on the processing

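cdc-48.1 and eel-1, and not cdc-48.2, had a peak under each of the 8 alternatives to the main rule. The genes were chosen by these same peaks, so this is no independent support. With the distances and IDR given above, the changes of window and of IDR limit could not have given another outcome. The count of 78 listed genes with a peak was 4, and became 2 in a window of 500 bp, 5 at an IDR of at most 0.05, 1 at 0.001, and 1 to 3 in single replicates. The share of protein-coding genes with a peak was 2.17%, and became 1.46% in a window of 500 bp, 4.12% at an IDR of at most 0.05, 0.701% at 0.001, 1.07% with the nearest start only and 0.936% to 0.981% in single replicates. The shorter lists hold fewer peaks by construction. Signal percentiles of 98.2 (cdc-48.1), 97.1 and 41.9 (proximal and distal eel-1) became 91.7 to 96.3, 91.6 to 95.3 and 36.7 (replicate 1 only) in single replicates. In the ranked list the eel-1 peaks stood at 99.95 and 99.5, and the distal one at 47.3 in the second thresholded list. Summits lay at −178 to −165 bp for cdc-48.1, −375 to −339 bp for the proximal and −787 bp for the distal eel-1 peak (replicate 1 only). For the repeat, chosen after seeing the data, 11 of 39 copies with a peak (28.2%) became 14 of 39 within 500 bp (35.9%), 9 of 30 at 90% identity (30.0%), 14 of 52 over 50% of the arm (26.9%), 10 of 39 in replicate 2 alone and 5 of 39 in replicate 1 alone. No paired analysis was possible because the study has 1 group. Depth is unknown, so no counting error can be given for any signal.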

Other observations

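The cdc-48.1 and proximal eel-1 peaks were also narrower than most, as were many of the strongest peaks. Of the 551 conservative peaks, 530 were 280 bp wide, and the other 21, these peaks among them, were 78 to 210 bp wide. The narrow peaks had signals from 168.9 to 443.5 and all were among the 40 strongest, of which the other 19 were 280 bp wide. In replicate 2 the proximal eel-1 peak was 61 bp wide, against 244 bp for most peaks of that list.

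The order by q-value was not that by signal at these sites. In replicate 1 the distal eel-1 peak, with a signal of 53.4, had a q-value of 0.0392. The proximal peak, with 97.9, had 0.0959, and the cdc-48.1 peak, with 129.7, had 0.0698. In replicate 2 the q-values were 0.0924 at cdc-48.1, 0.124 at the proximal and 0.152 at the distal eel-1 peak. For the conservative peaks they were 0.0566 at cdc-48.1, 0.0423 at the proximal and 0.0585 at the distal eel-1 peak.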
